A study of Homo sapiens with 5 samples.

Results

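The 45 genes described here carry out or control DNA replication and entry into S phase. They were chosen by symbol from a list of origin licensing factors, helicase and polymerase subunits, clamp and clamp loader genes, nucleotide synthesis enzymes, G1/S regulators, and genes of chromatin assembly and fork protection. All 45 were listed in each of the 5 gene tables, out of 12497 different gene rows in the series and 10731 listed in every table. The tables hold mRNA levels of MDA-MB-231, a human triple-negative breast cancer cell line, as FPKM, which are fragments scaled to gene length and to library size, so that levels of different genes are compared per length. Each group had 1 library. For si-LY6E-DT, cells received a Smart Silencer against LY6E-DT, a long noncoding RNA, and si-NC, titled si-LY6E-NC, is the negative control. The label of the si-HNRNPC library names HNRNPC, a nuclear RNA-binding protein that prefers stretches of U, as the gene silenced with an siRNA. L15 with serum was the culture medium. The RIP-HNRNPC library is RNA recovered with an anti-HNRNPC antibody on magnetic beads from lysed cells without a named transfection, and RIP-input is labelled as lysate of the same line. The treatment text names the siRNA and the targets in crossed order, so each library is called here by its own label. The labels give neither a transfection time nor a dose, and an IgG library was not analysed here. With 1 library per group there is no replicate spread, so differences carry no SD, SE or p-value, and each describes a pair of libraries.

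Replication begins with licensing in G1, when the origin recognition complex, CDC6 and CDT1 load the MCM2-7 helicase onto DNA. At S phase entry CDC45, GINS and MCM10 turn the loaded helicase into a working one, primase and the polymerases copy the strands, and PCNA, loaded by the RFC complex, tethers the polymerases. Many of these genes are transcribed in late G1 under control of E2F factors, and in cycling tumour cells their mRNAs are commonly used as signs of proliferation. In bulk RNA, fewer cells in S phase and less of an mRNA per cell cannot be told apart.

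The promoters of the members were examined for the E2F motifs TTTCCCGC, TTTGGCGC, TTTCGCGC and TTTGCCGC, on both strands, in the window from 250 bases before to 50 bases after each RefSeq start (GRCh38.p14). A promoter was found for 40 members. Of these, 23 (57.5%) held at least 1 of the motifs, against 6.995% of 8492 genes listed in all libraries with a promoter in that table, and 3.99% of all 27305 genes in it. The CCAAT box, in either strand, was in 25 of the 40 (62.5%), against 43.8% of the 8492 genes. The motifs can overlap, so a promoter may match more than 1 of them at the same bases. The windows below show the motif, in capitals, in genes to which the results return. They are written on the coding strand, so in GINS1, GINS3 and POLA1 the capitals are the reverse complement of a motif.
GINS1 promoter, chr20:25407667-25407696, plus strand: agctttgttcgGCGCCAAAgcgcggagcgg
GINS3 promoter, chr16:58392455-58392484, plus strand: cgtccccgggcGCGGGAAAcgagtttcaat
POLA1 promoter, chrX:24693770-24693799, plus strand: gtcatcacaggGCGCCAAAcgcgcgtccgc
MCM7 promoter, chr7:100101388-100101417, minus strand: ggggggcgacgTTTCGCGCcaatttcggtt
E2F1 promoter, chr20:33686387-33686416, minus strand: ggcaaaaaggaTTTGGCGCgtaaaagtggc
MCM6 promoter, chr2:135876515-135876544, minus strand: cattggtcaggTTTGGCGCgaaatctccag
None of these letters was found in the windows of RRM2, ORC6 or TK1. On the log2 scale defined below, the 23 members with a motif had a median change of −0.80 in the immunoprecipitate against input (range −3.19 to 1.68) and the 17 without one −1.57 (−3.58 to 1.31). From si-NC to the library labelled si-HNRNPC the medians were −0.12 with a motif and 0.34 without, and for si-LY6E-DT −0.16 and 0.02. The ranges overlapped, and these differences were not tested.

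The libraries differed in their make-up. HNRNPC was at 48.8 FPKM where its knockdown is labelled, 52.2 in si-NC, 67.4 in RIP-input, 58.4 in the immunoprecipitate and 40.1 in si-LY6E-DT. The library labelled si-HNRNPC was thus below si-NC and both RIP libraries by less than 2-fold and above si-LY6E-DT, so the targeted mRNA does not show the labelled knockdown at 2-fold, and each direction below belongs to a library called by its label. The level of LY6E-DT itself was not analysed here. Mitochondrially encoded mRNAs took 29.8% of the FPKM sum in RIP-input against 7.20% to 9.92% in the other 4 libraries. The mesenchymal markers VIM, CD44, AXL, CAV1, ZEB1, FN1 and MSN were listed in all libraries, with summed levels of 802 to 978 FPKM. On the log2 scale defined below, 3 of the 7 fell at least 2-fold from si-NC to the library labelled si-HNRNPC. These were CAV1, CD44 and FN1, beside 9.44% of all genes tested. The lowest log2 change of the 7 was −3.25 and their median −0.45. Against RIP-input, which has no labelled knockdown, 0 of the 7 were at least 2-fold lower in the library labelled si-HNRNPC. CAV1 was higher, and the median was −0.13 (range −0.49 to 2.28). The shares of all genes were 4.03% lower and 9.11% higher. The si-NC library itself was at least 2-fold above RIP-input for CAV1 and FN1, and below it for VIM. The shares of all genes there were 14.2% and 10.4%. ESR1 and PGR, which define luminal breast cells, were not listed. Of 11 luminal markers 7 or 8 were listed, summing to 307 FPKM for si-NC, 319 for si-LY6E-DT, 111 in RIP-input, 89.1 in the library labelled si-HNRNPC and 11.2 in the immunoprecipitate. Of 9 fibroblast markers 3 were listed for the transfected pair, summing to 3.82 FPKM with si-LY6E-DT and 2.41 with si-NC, and none in the other tables. Of 8 leukocyte markers CD68 alone was listed outside the RIP tables, at 7.86 FPKM for si-LY6E-DT, 4.86 for si-NC and, in the library labelled si-HNRNPC, 74.8. Both RIP tables listed 3, summing to 65.1 FPKM in the input and 19.6 in the immunoprecipitate. The defining leukocyte gene PTPRC was not listed in any table. The part of these differences in the results below was not tested.

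The members were well expressed outside the immunoprecipitate. Where 5 values are given in a row, their order is si-LY6E-DT, si-NC, RIP-input, RIP-HNRNPC (the immunoprecipitate) and the library labelled si-HNRNPC. The members' median level was 13.6, 14.2, 13.9, 4.66 and 17.9 FPKM, against 5.92, 5.69, 4.92, 3.68 and 6.06 over all listed genes. Together the members made up 0.577%, 0.628%, 0.341%, 0.233% and 0.544% of the FPKM sum. With mitochondrially encoded mRNAs left out of the sum, the share in RIP-input was 0.486% and that in si-NC 0.676%.

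Levels spread widely among the members. PCNA, the sliding clamp, was the highest by mean, at 144, 165, 109.8, 47.2 and 92.4 FPKM. The flap nuclease FEN1, which trims Okazaki fragments, followed with 65.2, 85.4, 70.4, 14.9 and 154 FPKM. The helicase subunit MCM3 came next, at 86.2, 93.3, 75.8, 14.8 and 79.4. These 3 were lowest in the immunoprecipitate, and FEN1 was highest where the label names si-HNRNPC. At the other end, the activator E2F2 was at 1.58, 2.50, 0.948, 2.06 and 1.49 FPKM, and CCNE1, which encodes the CDK2 partner cyclin E1, was at 4.47, 5.28, 1.42, 0.732 and 1.95. BRCA1, which acts in homologous recombination and protects stalled forks, was at 6.74, 4.67, 2.04, 1.29 and 2.60. The steadiest member was TIPIN, a partner of TIMELESS at the fork, whose highest level was 1.35 times its lowest. The least steady was thymidine kinase TK1, with a ratio of 27.9.

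**Figure D1:**
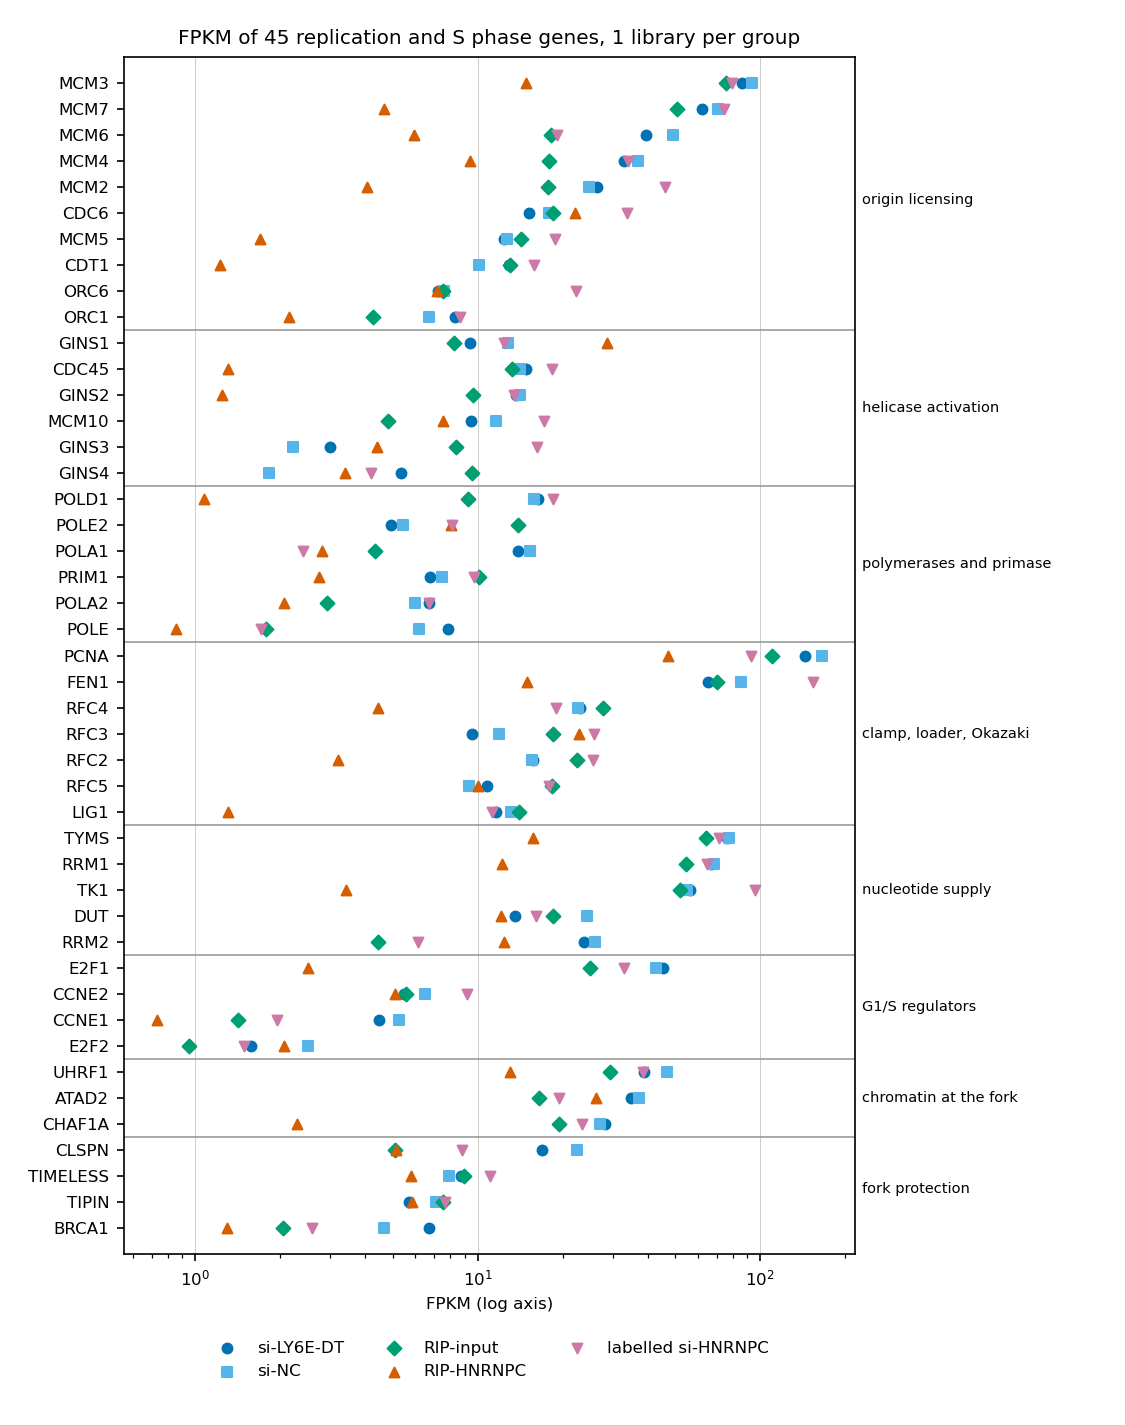
FPKM of the 45 members (log axis) in the 5 libraries, grouped by role and ordered by mean level, 1 point per library. The immunoprecipitate (orange triangles) holds the lowest level of 31 members, and the highest of 1, GINS1.

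The library that held the extreme level of a member was unevenly shared out. The immunoprecipitate was lowest for 31 of the 45 members (68.9%), against 49.4% of the 10731 genes listed everywhere, and highest for 1 (2.22%), against 28.95%. The library labelled si-HNRNPC was highest for 18 members (40.0%), against 24.1% of all genes, and si-NC for 15 (33.3%), against 11.9%.

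Changes between libraries are given as log2((FPKM + 1)/(control FPKM + 1)), which makes the change of a low gene look smaller. Genes needed a value in both libraries of the pair and a mean of 1 FPKM or more. A gene is said to have risen or fallen, or to be enriched or depleted, at 2-fold or more on that scale, which is a rule of size and not a test. All 45 members passed the filter in each of the 5 comparisons.

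The first comparison asks what targeting LY6E-DT did to replication genes. The members stayed close to si-NC. Of the 45, 1 rose at least 2-fold, against 1.66% of 10473 genes tested, and none fell, against 0.888%. The median log2 change was −0.09, with a range of −0.81 to 1.16, against a median of 0.04 for all genes tested. The 17 members above 0 and 28 below it can be set against 55.6% of all genes above 0.

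The member that rose was GINS4, a subunit of the GINS complex, which was at 5.33, 1.82, 9.57, 3.40 and 4.20 FPKM in the 5 libraries (log2 change 1.16). The si-NC level of GINS4 was the lowest of the 5 libraries. The other GINS subunits did not move with it: GINS1 was at 9.39 against 12.8 FPKM, GINS2 at 13.6 against 14.1 and GINS3 at 2.99 against 2.21. The largest difference in the other direction was in DUT, the dUTPase that keeps uracil out of DNA, at 13.5, 24.5, 18.4, 12.1 and 16.1 FPKM (log2 −0.81, under 2-fold). DUT has 8 named pseudogenes, which could take or give reads.

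The licensing genes lay between −0.32 (MCM6, 39.3 against 49.2 FPKM) and 0.32 (the MCM loader CDT1, 12.85 against 10.1). The polymerase and primase genes lay between −0.13 and 0.30 (POLE), and the clamp, clamp loader and Okazaki genes between −0.38 and 0.19. FEN1, at the lower end of the last group, was at 65.2 against 85.4 FPKM. Claspin, CLSPN, an adaptor of the replication checkpoint, was at 16.8 against 22.5 FPKM (log2 −0.40), while BRCA1 was at 6.74 against 4.67 (0.45). The call of GINS4 depends on its low control level: it was 0.60 with a pseudocount of 5 and GINS4 was not tested with a filter at 5 FPKM.

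The comparison of the immunoprecipitate with its input asks which mRNAs were recovered with HNRNPC. Depleted members outnumbered enriched ones. Of the 45, 22 (48.9%) were depleted at least 2-fold, against 36.9% of 10284 genes tested, and 2 (4.44%) were enriched, against 24.2%. Their median log2 change was −0.86, against −0.34 for all genes, and 37 of 45 were below 0, against 56.6% of all genes. An FPKM ratio between an immunoprecipitate and its input gives recovery relative to the other mRNAs and not an amount bound.

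Of the 10 licensing genes 6 were depleted, where 36.9% of all genes were. The helicase subunit MCM7 was at 62.3, 70.8, 50.8, 4.66 and 74.5 FPKM (immunoprecipitate against input, log2 −3.19) and MCM5 at 12.4, 12.7, 14.2, 1.70 and 18.8 (−2.50). MCM2 was at 26.4, 24.8, 17.7, 4.05 and 46.0 (−1.89), and CDT1 at 12.85, 10.1, 12.96, 1.22 and 15.8 (−2.65). In each of these the immunoprecipitate stood below the other 4 libraries, as it did for MCM3 (−2.28, levels above) and MCM6 (−1.47, levels below). The remaining subunit of the hexamer, MCM4, did not pass 2-fold, at 33.0, 37.0, 17.9, 9.41 and 34.0 FPKM (−0.86). The loader CDC6, at 22.2 against 18.4 FPKM (0.25), and the origin recognition subunits ORC6, at 7.18 against 7.51 (−0.06), and ORC1, at 2.15 against 4.27 (−0.74), were also under 2-fold.

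Subunits of GINS, which act together in 1 complex, went in opposite directions. GINS1 was enriched, at 9.39, 12.8, 8.22, 28.6 and 12.4 FPKM (1.68), and its level in the immunoprecipitate was the highest of the 5. GINS2 was depleted, at 13.6, 14.1, 9.63, 1.24 and 13.4 FPKM (−2.25), as was GINS4 (−1.26, levels above), while GINS3 was at −0.80. In the input the 4 subunits lay between 8.22 and 9.63 FPKM, and in the immunoprecipitate they spread over 23.0-fold. Of the other helicase activators, CDC45 was depleted at 14.8, 14.2, 13.3, 1.305 and 18.3 FPKM (−2.63), and MCM10 was at 9.43, 11.6, 4.82, 7.55 and 17.1 (0.56).

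The ribonucleotide reductase subunits, which together make deoxyribonucleotides, also parted. RRM2, the small regulated subunit, was enriched (1.31), at 23.8, 25.9, 4.44, 12.4 and 6.14 FPKM, and its level in the immunoprecipitate remained below that of the transfected pair. RRM1, the large catalytic subunit, was depleted (−2.08), at 67.0, 68.8, 54.6, 12.1 and 64.7. The input had 12.3 times more RRM1 than RRM2 and the immunoprecipitate nearly equal levels, with a ratio of 1.02 in favour of RRM2. RRM2 shares exon positions with another annotated gene on the same strand, so its value is uncertain. TK1, which salvages thymidine, was at 56.5, 55.2, 52.0, 3.43 and 95.5 FPKM (−3.58, the lowest of all members). Thymidylate synthase TYMS was at 76.01, 77.5, 64.4, 15.7 and 71.2 (−1.97), and DUT was under 2-fold (−0.57). TYMS shares exon positions with ENOSF1 on the opposite strand, and whether counting used strand is not given in the sources used here.

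Of the 7 clamp, clamp loader and Okazaki fragment genes 5 were depleted, again beside 36.9% of all genes. PCNA was at −1.20 and FEN1 at −2.16, with levels given above. The loader subunit RFC2 was at 15.7, 15.5, 22.4, 3.20 and 25.6 FPKM (−2.48) and RFC4 at 23.1, 22.7, 27.6, 4.43 and 18.98 (−2.40). In the same loader, RFC3 was at 22.8 against 18.5 (0.29) and RFC5 at 10.8, 9.33, 18.3, 9.98 and 17.9 (−0.81). DNA ligase LIG1, which seals the fragments, was at 11.6, 13.1, 13.95, 1.303 and 11.3 FPKM (−2.70).

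Of the 6 polymerase and primase genes 2 were depleted, a share no higher than the 36.9% of all genes. The catalytic subunit of polymerase delta, POLD1, was at 16.3, 15.8, 9.22, 1.07 and 18.5 FPKM (−2.30) and the primase PRIM1 at 6.75, 7.45, 10.1, 2.73 and 9.66 (−1.57). POLA1 (−0.48), POLA2 (−0.36), POLE (−0.58) and POLE2 (−0.73) stayed under 2-fold. Both depleted genes share exon positions with a coding gene on their strand.

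E2F1, the founding activator of its family, was at 45.4, 42.7, 24.97, 2.50 and 32.8 FPKM (−2.89). Its relative E2F2 was at 2.06 against 0.948 (0.65), and the cyclin genes CCNE1 and CCNE2 were at −0.48 and −0.11. The chromatin assembly subunit CHAF1A was at 28.1, 27.1, 19.4, 2.29 and 23.3 FPKM (−2.63) and UHRF1, which guides maintenance methylation of DNA, at 38.9, 46.7, 29.5, 13.0 and 38.3 (−1.12). ATAD2, a bromodomain ATPase, was at 34.8, 37.1, 16.4, 26.1 and 19.4 (0.64). None of the 4 fork protection genes reached 2-fold, with CLSPN at 0.01, TIPIN at −0.32, BRCA1 at −0.41 and TIMELESS at −0.55. When the median of all genes was set to 0, the median of the members was −0.52 and the depleted members numbered 19. UHRF1, PCNA and GINS4 then stayed under 2-fold. The share of all genes depleted at that setting is not given here, so this count is not set against all genes.

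**Figure D2:**
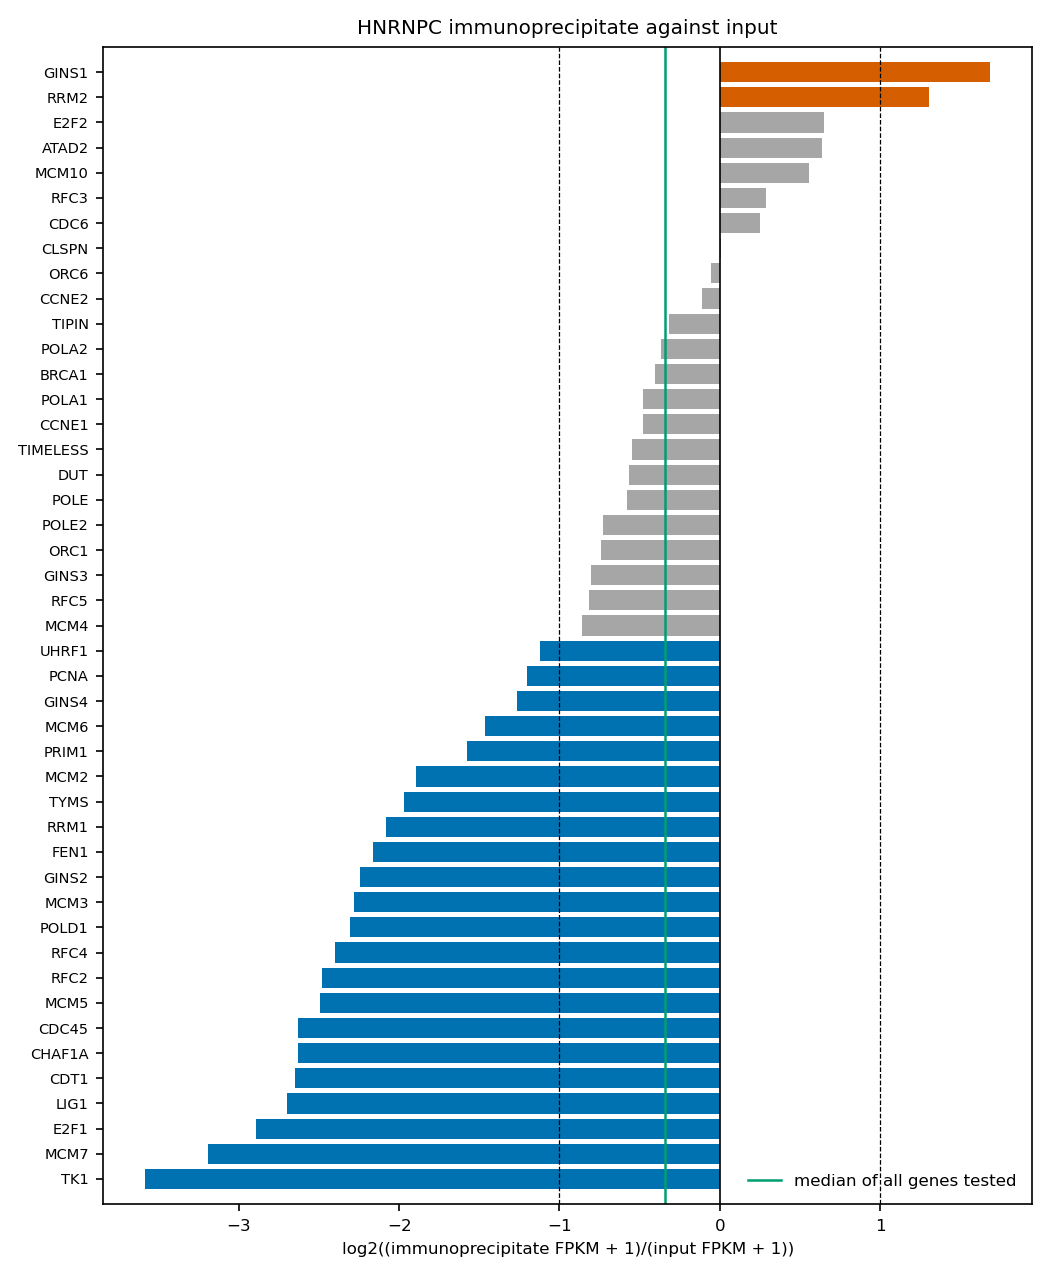
log2 change of the 45 members in the HNRNPC immunoprecipitate against input, sorted, with dashed lines at 2-fold and a green line at the median of all genes tested (−0.34). Of the bars, 22 (blue) pass the lower line, from UHRF1 (−1.12) to TK1 (−3.58), and 2 (orange), GINS1 and RRM2, pass the upper line.

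Recovery varied with base composition and with runs of U among the members, as it did among all genes. One protein-coding transcript per gene from GENCODE 29 (GRCh38) was used, and 10223 genes (99.4% of those tested) had a value. Across the 45 members the log2 change had a Spearman's rho of −0.63 with the G + C percentage of the transcript, 0.61 with the number of runs of 5 or more U in the 3′ UTR and 0.46 with 3′ UTR length. Across all genes tested these were −0.55, 0.69 and 0.58. With the runs counted per kb of 3′ UTR, rho was lower, at 0.38 across the members and 0.46 across all genes (10124 with a value). The members come from the same library pair, and these features move together, so the values describe these libraries.

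The 10 members without such a run in the 3′ UTR had a median log2 change of −2.44, and 8 of them were depleted. The 35 with a run had a median of −0.74, with 14 depleted and both enriched members among them. For all genes the medians were −1.82 over 2032 genes without a run and 0.04 over 8191 with one. Of these, 75.7% without a run and 27.2% with one were depleted, where the members' shares were 80% and 40%. Enriched genes numbered 118 without a run and 2350 with one. The members' medians lay below those of all genes of like G + C content. In the tercile of genes with the lowest G + C (up to 43.8%), 13 members had a median of −0.32 against 0.88 for all 3408 genes there. The 17 members in the middle tercile had −0.81 against −0.18, and the 15 in the highest tercile −2.48 against −1.44. The terciles match on G + C alone. The members' median 3′ UTR length was 752 bases, against 1108 for all genes tested, and their median number of runs 3, against 4. The part of these features in the lower medians was not tested.

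The longest run of U in the 3′ UTR is shown in capitals, with T for U and in mRNA sense, for the enriched member RRM2 and for 3 others, of which RFC3 was under 2-fold (0.29) and MCM6 and RRM1 were depleted. Each window is exonic and lies in the annotated 3′ UTR, and the positions are those of GENCODE 29 on GRCh38.
RRM2, chr2:10130625-10130654, plus strand: acataaTTTTTTTTTTTTTTTTTgagatgg
RFC3, chr13:33836393-33836422, plus strand: tcgtatttgcgTTTTTTTggtaataacttc
MCM6, chr2:135840216-135840245, minus strand: ccagttgTTTTTTTTTTTTTTTaagtttat
RRM1, chr11:4138531-4138560, plus strand: atgataatgaTTTTTTTTTTaaactcatat
RRM2 had 8 runs in a 3′ UTR of 2032 bases, the longest of 17 bases, and RFC3 had 5 runs. A long run did not go with enrichment in each case. The run of 15 in MCM6 and that of 10 in RRM1 lie in mRNAs that were depleted, and CLSPN, with no run in its annotated 3′ UTR of 91 bases, was level with the input. TK1, MCM7, CDT1, POLD1, CHAF1A, RFC2, RFC4, PRIM1 and POLE2 also had no run. These windows mark letters and not measured contacts, and introns, where HNRNPC is known to bind, were not examined.

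**Figure D3:**
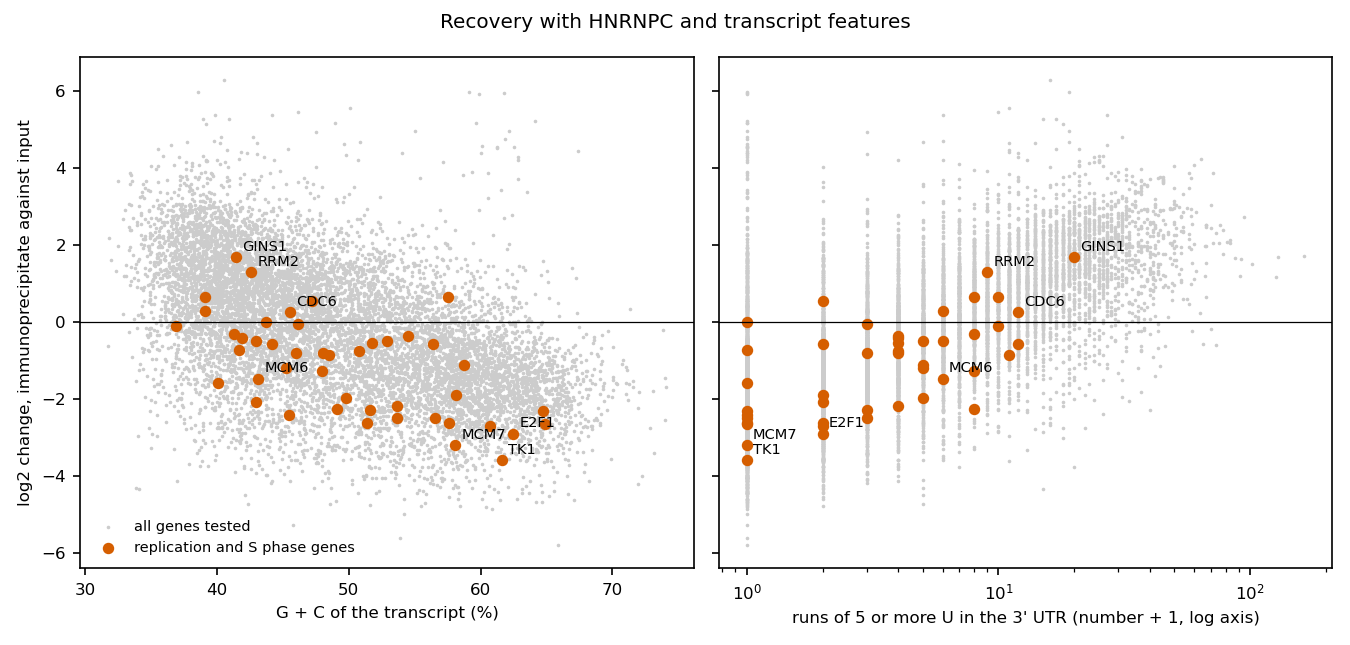
log2 change in the immunoprecipitate against input by transcript G + C (left, percent) and by the number of runs of 5 or more U in the 3′ UTR plus 1 (right, log axis), with 1 point per gene, members in orange and all genes tested in grey. Members with more G + C lie lower (rho −0.63) and members with more runs lie higher (rho 0.61).

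The next comparison asks what changed where a knockdown of HNRNPC is labelled, with HNRNPC mRNA within 2-fold of si-NC. Relative to si-NC, the members moved both ways. Of the 45, 3 rose (6.67%), against 12.4% of 10247 genes tested, and 6 fell (13.3%), against 9.44%. The median log2 change was 0.07, against 0.04 for all genes, and turned to −0.16 with quantile normalization, −0.12 with rescaling and −0.06 without members that share exons. With either quantile normalization or rescaling, 2 members rose and 8 fell.

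The risers were GINS3, ORC6 and RFC3. GINS3 was at 2.99, 2.21, 8.40, 4.39 and 16.2 FPKM in the 5 libraries, a rise of 2.42 on the log2 scale relative to si-NC. ORC6 was at 7.20, 7.62, 7.51, 7.18 and 22.2, a rise of 1.43, so that the library labelled si-HNRNPC stood above 4 libraries that were close to each other. RFC3 was at 9.56, 11.9, 18.5, 22.8 and 25.8, a rise of 1.06, which was 0.93 with quantile normalization and 0.91 with rescaling. Its level in RIP-input and the immunoprecipitate was also above that of the transfected pair. Relative to RIP-input the values were 0.87 for GINS3, 1.45 for ORC6 and 0.46 for RFC3. The si-NC level of GINS3 was the lowest of the 5 libraries.

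The fallers were POLA1, RRM2, POLE, MCM6, CLSPN and CCNE1. POLA1, the catalytic subunit of the polymerase that starts each new strand, was at 13.9, 15.3, 4.31, 2.82 and 2.41 FPKM (log2 −2.25). RRM2, whose levels are given above, was at −1.91. POLE, the catalytic subunit of the leading strand polymerase, was at 7.85, 6.20, 1.77, 0.857 and 1.71 (−1.41). In these 3 genes si-LY6E-DT and si-NC held the highest levels, and RIP-input was low as well.

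MCM6 was at 39.3, 49.2, 18.2, 5.93 and 19.1 FPKM (−1.32), and CLSPN at 16.8, 22.5, 5.10, 5.14 and 8.82 (−1.26). CCNE1 was at −1.09. For these too, RIP-input, which has no labelled knockdown, lay below si-NC, and their values relative to RIP-input are next to these: 0.07 for MCM6, 0.69 for CLSPN, 0.29 for CCNE1, −0.64 for POLA1, 0.39 for RRM2 and −0.04 for POLE. The comparisons with si-NC and with RIP-input share the tested library, so they are not independent.

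Relative to RIP-input, the library labelled si-HNRNPC had 4 members higher (8.89%), against 9.11% of 10185 genes tested, and 1 lower (2.22%), against 4.03%. The median was 0.35, against 0.15 for all genes, and 35 of 45 members were above 0, against 59.6% of all genes. MCM10 (log2 1.64), ORC6 (1.45), MCM2 (1.33) and FEN1 (1.12) were higher and GINS4 (−1.02) was lower, with levels given above. FEN1 shares exons with FADS2 on its strand.

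Members under 2-fold against si-NC included the most abundant ones. FEN1 was at 154 against 85.4 FPKM (0.84), TK1 at 95.5 against 55.2 (0.78), MCM2 at 46.0 against 24.8 (0.87) and CDC6 at 33.6 against 17.9 (0.87). PCNA was at 92.4 against 165 (−0.83) and ATAD2 at 19.4 against 37.1 (−0.90). MCM3, MCM4, MCM7, RRM1, TYMS, GINS1 and GINS2 lay between −0.23 and 0.07. The helicase subunits thus differed, from −1.32 for MCM6 to 0.87 for MCM2, while the MCM2-7 sums were 272 FPKM (labelled si-HNRNPC) and 288 (si-NC).

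**Figure D4:**
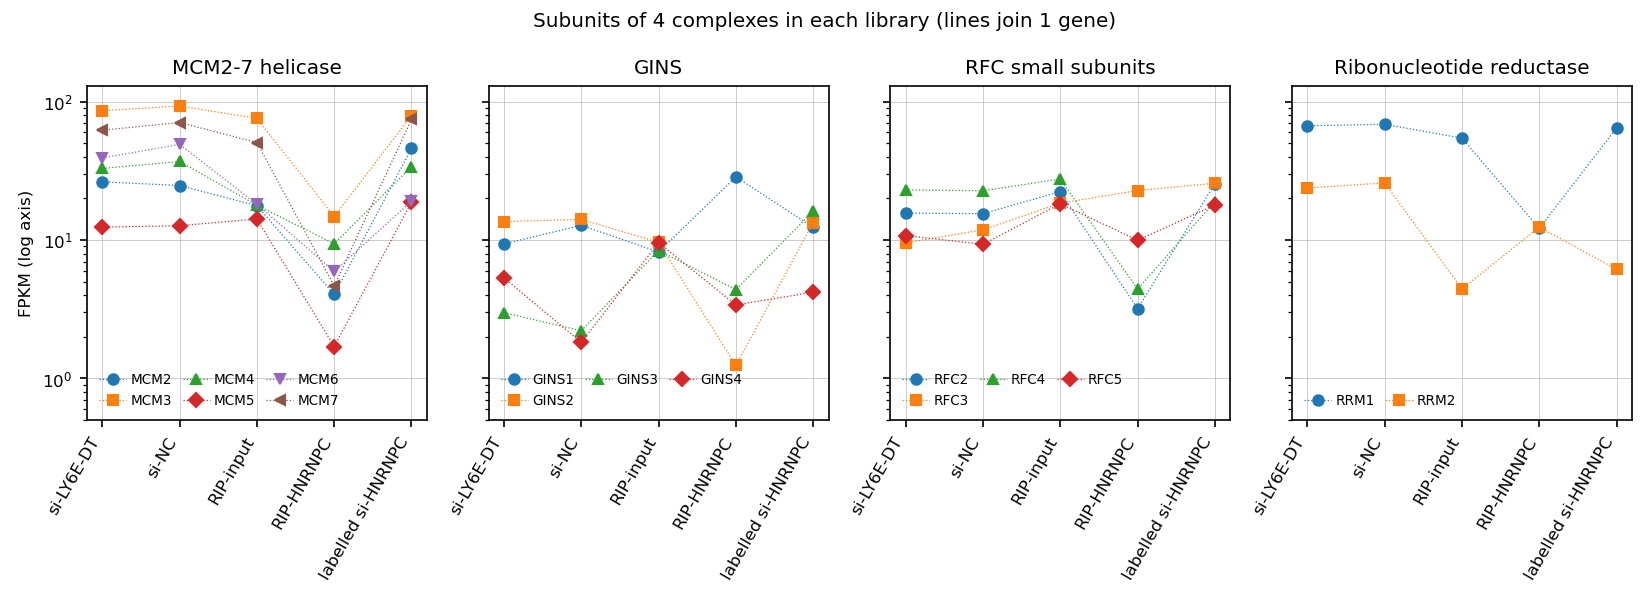
FPKM (log axis) of the subunits of 4 complexes in each library, 1 point per gene and library, with dotted lines that join a gene across libraries and imply no order. GINS subunits lie together in RIP-input (8.22 to 9.63 FPKM) and apart in the immunoprecipitate (1.24 to 28.6), and RRM2 lies below RRM1 in the libraries other than the immunoprecipitate.

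The comparison of si-NC with RIP-input sets a pair of libraries without a named knockdown side by side, and so shows how far members differ between the transfected and RIP sets. Of the 45, 9 were higher in si-NC, against 14.2% of 10264 genes tested, and 3 (6.67%) lower, against 10.4%. The median was 0.39, against 0.11 for all genes. RRM2 had the largest difference, 25.9 against 4.44 FPKM (log2 2.31), followed by CLSPN (1.94), POLA1 (1.61), MCM6 (1.39), CCNE1 (1.38), POLE (1.37), ATAD2 (1.13), MCM10 (1.11) and MCM4 (1.01, or 0.90 with the median of all genes set to 0). The lower genes were GINS4, at 1.82 against 9.57 FPKM (−1.90), GINS3, at 2.21 against 8.40 (−1.55), and POLE2, the second subunit of polymerase epsilon, at 4.93, 5.44, 13.9, 8.02 and 8.08 (−1.21). POLE and POLE2, subunits of 1 polymerase, thus differed in opposite directions. Their transcripts have 7840 and 1776 bases. Across the 45 members the log2 change of si-NC against RIP-input had a Spearman's rho of 0.48 with transcript length. Across all genes tested it was 0.31. From si-NC to the library labelled si-HNRNPC the values were −0.31 for members and −0.30 for all genes. The part of length in the changes named was not tested. The transfection, the RIP lysis and any difference between cultures cannot be told apart here, since each set differs in all of them.

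Within complexes, the input and the library labelled si-HNRNPC were more even than si-NC in some and less in others. The 4 small RFC subunits lay within 1.51-fold in RIP-input and 1.44-fold in the library labelled si-HNRNPC, against 2.44-fold in si-NC and 2.41-fold in si-LY6E-DT. RRM1 exceeded RRM2 by 2.65 times in si-NC and 2.81 times in si-LY6E-DT, but by 12.3 times in RIP-input and 10.5 times under the si-HNRNPC label. MCM3 was the highest and MCM5 the lowest MCM2-7 subunit in all 5 libraries, with a spread of 4.22-fold to 8.71-fold.

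**Figure D5:**
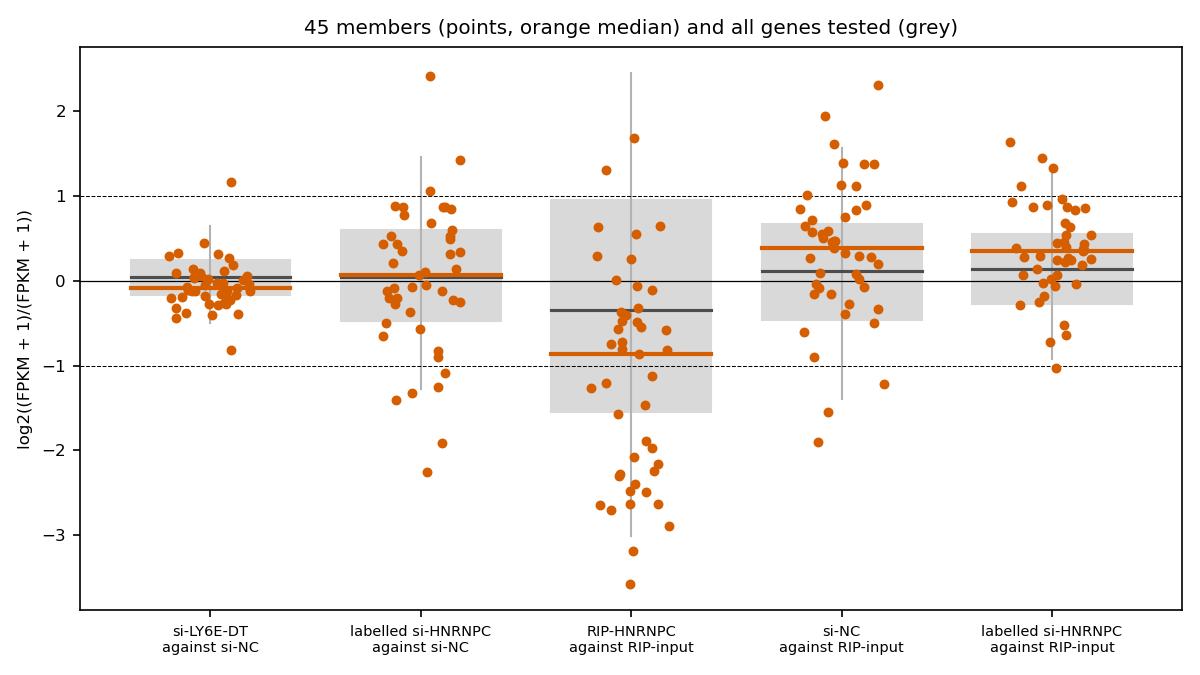
log2 change of each member (orange points, with their median as an orange bar) in the 5 comparisons, over all genes tested (grey box from the 25th to the 75th percentile, thin line from the 5th to the 95th, dark bar at the median). The members sit close to 0 in si-LY6E-DT, where 1 passes the dashed 2-fold lines, and extend furthest below it in the immunoprecipitate, where 22 do.

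The rest of the replication pathway was described with lists of genes outside the 45. Of 39 tested other replication fork genes, none passed 2-fold in si-LY6E-DT (median −0.14), where 1.66% of all genes rose and 0.888% fell. With shares so low, a list without a called gene, here or below, is not set apart from all genes. In the immunoprecipitate 16 of 40 were depleted and 3 enriched (median −0.62), where 36.9% of all genes were depleted and 24.2% enriched (median −0.34), so the depleted share was near that of all genes. RNASEH2A, a subunit of the nuclease that removes ribonucleotides from DNA, was at 1.68 against 35.3 FPKM (−3.76), and the histone chaperone subunit SSRP1 at 6.18 against 73.2 (−3.37). ATAD5, which unloads PCNA, was enriched at 13.4 against 1.24 FPKM (2.68). Relative to si-NC, under the si-HNRNPC label, 1 of 39 rose, beside 12.4% of all genes, the histone chaperone ASF1B at 47.1 against 18.9 FPKM (1.27). Of the same 39, 5 fell, beside 9.44%. MCM8, a helicase of recombination, was at 3.71 against 18.9 (−2.08) and RFC1, the large RFC subunit, at 4.62 against 13.5 (−1.37). RIP-input, which has no labelled knockdown, held 29.5 FPKM of ASF1B, 6.78 of MCM8 and 7.02 of RFC1. Relative to RIP-input, 2 of 39 were higher under the label and 0 lower, beside 9.11% and 4.03% of all genes.

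Of 18 other nucleotide synthesis genes, none passed 2-fold in si-LY6E-DT, where 1.66% of all genes rose and 0.888% fell. In the immunoprecipitate 9 of the 18 were depleted and 4 enriched (median −0.93), beside 36.9% and 24.2% of all genes. NME1, a nucleoside diphosphate kinase, was at 1.46 against 41.2 FPKM (−4.10), and the deoxycytidine kinase DCK was enriched at 51.3 against 9.83 (2.27). Relative to si-NC, under the si-HNRNPC label, SHMT2, which feeds the one-carbon pool, rose from 21.4 to 58.1 FPKM (1.40). DTYMK, which makes dTDP, rose from 26.3 to 60.5, and CAD, which starts pyrimidine synthesis, fell from 29.4 to 8.81 (−1.63). In RIP-input SHMT2 was at 38.9 FPKM, DTYMK at 25.6 and CAD at 3.69. Relative to RIP-input, DTYMK (1.21) and CAD (1.07) were higher under the label and 0 of the 18 lower, beside 9.11% and 4.03% of all genes.

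Of the G1/S control genes in the immunoprecipitate, 8 of 24 were enriched and 4 depleted, beside 24.2% and 36.9% of all genes, with a median of 0.50. The kinase CDK6 was at 46.3 against 2.61 FPKM (3.71) and E2F3 at 16.6 against 0.458 (3.59), next to E2F1 at −2.89. MYBL2, a transcription factor of the cell cycle, was at 5.88 against 39.0 (−2.54). Relative to si-NC, under the si-HNRNPC label, 3 rose and 3 fell, beside 12.4% and 9.44% of all genes. CDK4, the partner of D cyclins, was at 69.9 against 14.9 FPKM (2.16), and the CDK4 and CDK6 inhibitor CDKN2C at 3.51 against 17.6 (−2.05). In RIP-input CDK4 was at 41.5 FPKM and CDKN2C at 7.35. Relative to RIP-input, 7 of 24 were higher under the label and 1 lower, beside 9.11% and 4.03% of all genes. None of the 24 passed 2-fold in si-LY6E-DT, where 1.66% of all genes rose and 0.888% fell.

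Of the replication checkpoint and repair genes, 6 of 18 were enriched in the immunoprecipitate and 3 depleted, beside 24.2% and 36.9% of all genes, with a median of 0.49. BRCA2, which acts in homologous recombination, was at 5.36 against 0.462 FPKM (2.12), and RMI1, a partner of the BLM helicase, at 32.7 against 6.81 (2.11). Relative to si-NC, under the si-HNRNPC label, none of 19 rose and 3 fell, beside 12.4% and 9.44% of all genes. The fallers were WEE1, a kinase that restrains CDKs, at 2.65 against 9.79 FPKM (−1.57), FANCD2 (−1.47) and BLM (−1.40). In RIP-input WEE1 was at 3.28 FPKM, FANCD2 at 3.25 and BLM at 2.38. Relative to RIP-input, 2 of 17 tested were higher under the label and 0 lower, beside 9.11% and 4.03% of all genes. In si-LY6E-DT none of 19 passed 2-fold, where 1.66% of all genes rose and 0.888% fell. Of 30 mitosis and G2/M genes, 15 fell and 1 rose from si-NC to the library labelled si-HNRNPC, beside 9.44% and 12.4% of all genes, with a median of −0.99 where the members had 0.07. Against RIP-input, 4 were lower and 1 higher in the library labelled si-HNRNPC, beside 4.03% and 9.11% of all genes. The si-NC library itself was higher than RIP-input for 12 of the 30 and lower for 0 (median 0.75). The shares of all genes there were 14.2% and 10.4%. In the immunoprecipitate 16 of these 30 were depleted and 3 enriched (median −1.15), beside 36.9% and 24.2% of all genes. With si-LY6E-DT none of the 30 passed 2-fold (median −0.22), beside 1.66% of all genes higher and 0.888% lower.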

How the data were processed

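Each library came as 1 deposited gene table in FPKM, per the file headers. For the steps before it, StringTie 1.3.3, HISAT2 2.1.0, cutadapt 1.17, FastQC 0.11.7 and the build GRCh37 are named, without roles or settings, per the submitters' processing notes. Among low genes no ratio between paired libraries repeated to 8 decimals, so whole reads could not be recovered, the depth is unknown and no interval or count test was used. Changes were log2((FPKM + 1)/(FPKM + 1)) at a mean of at least 1 FPKM, called at 2-fold. Positions and 3′ UTRs came from GENCODE 29 and promoters from RefSeq, both on GRCh38, and no coordinates were converted. In GENCODE 29, 5 members share exon positions with a coding gene on the same strand (RRM2, POLA2, POLD1, PRIM1, FEN1), 10 with one on the opposite strand, and 7 have named pseudogenes; their values are uncertain.

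Any member could be named. Levels in all 5 libraries are given for members past 2-fold in any comparison, for the 3 largest rises and falls in each among members with a mean of at least 5 FPKM, and for the 3 highest and 3 lowest members, and per other list up to 5 genes with the largest change could be named. The members, lists and alternatives were chosen with earlier results of these data known. Tables were computed with pandas 2.3.3 and numpy 2.4.6 and drawn with matplotlib 3.10.9 under Python 3.11.15. The calling rule was also run on simulated data with planted changes larger than its threshold. That run checks the working of the rule and not the error of the calls given here. Some sequence windows are not reported here.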

Additional observations from a re-analysis of the deposited data

How the results depend on the processing

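The values were recomputed with a pseudocount of 0.1 or 5, with a filter of 5 FPKM or none, after centring, quantile normalization or rescaling (which leaves out mitochondrial genes, ribosomal protein genes and the 20 highest), without members that share exons, and at 1.5-fold. No paired analysis was possible because each group has 1 library, and no library could be left out of a comparison. Of 130 counts and medians under these settings, 115 stayed within 1.5 times or 0.585 on the log2 scale. With a pseudocount of 5, the members that rose in si-LY6E-DT numbered 0, those that fell from si-NC to the library labelled si-HNRNPC 3, those enriched in the immunoprecipitate 1, those higher in si-NC than in RIP-input 4 and those lower 1, and those lower in the library labelled si-HNRNPC than in RIP-input 0. The filter of 5 FPKM also left 0 risers in si-LY6E-DT. Without genes that share exons 1 member, GINS1, was enriched. At 1.5-fold, 1 member was lower in si-LY6E-DT, 11 rose from si-NC to the library labelled si-HNRNPC, 4 were enriched in the immunoprecipitate, 15 were higher and 5 lower in si-NC against RIP-input, and 13 higher and 3 lower in the library labelled si-HNRNPC against RIP-input. The shares of all genes called at these settings are not given here. These counts thus show how the members' calls depend on the setting, and not an excess over all genes. Of 396 log2 changes of called members, 26 moved by 0.585 or more, all with a pseudocount of 0.1 or 5, and 0 changed sign. A larger pseudocount shrinks changes of low genes by construction. Depth is unknown, so low values such as E2F2 and CCNE1 carry an error that cannot be given.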
